A study of Mus musculus with 11 samples.

Results

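RNA polymerase I transcribes a single kind of gene, the repeated ribosomal DNA, and its product is the long precursor that is cut into most of the mature rRNAs. The enzyme is built around a pair of large catalytic subunits, and it is brought to the ribosomal promoter by a small set of dedicated factors. How much of this machinery a cell makes is one of the inputs to its ribosome production, and in muscle ribosome production is known to accompany growth. The 10 genes described here are 6 polymerase I subunits (Polr1a, Polr1b, Polr1e, Twistnb, Cd3eap and Znrd1), 3 polymerase I factors (Ubtf, Rrn3 and Taf1d) and the rRNA precursor itself (Rn45s). They were taken by symbol, and 10 of 10 were present among the 13121 genes of the soleus table and among the 12366 genes of the quadriceps table. Twistnb, Cd3eap and Znrd1 are older names of Polr1f, Polr1g and Polr1h.

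RNA was sequenced from 11 libraries of mouse soleus, a calf muscle of slow and fast fibres used in posture, and quadriceps, a mostly fast thigh muscle. The Myc-labelled mice (4 soleus and 2 quadriceps libraries) carried a doxycycline-inducible Myc system, were given doxycycline overnight to overexpress Myc and were sampled 12 hours after its removal. Their age is given as 2.5 months. The controls (3 soleus and 2 quadriceps libraries) were age-matched mice, also listed at 2.5 months. The labels do not give the genotype of the controls, whether the controls received doxycycline, the promoter or cell type that drives the transgene, or the strain and sex of the mice. They also do not say whether libraries of different muscles came from 1 mouse or whether libraries of 1 group came from separate mice, so the p-values reflect only how much these samples vary, which may be technical. In whole muscle, fewer cells of a type and less RNA per cell cannot be told apart.

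Levels are normalised read counts, which are estimated reads divided by 1 size factor per library, and estimated depth was 11.1 to 14.9 M reads in soleus and 14.2 to 18.4 M in quadriceps. The Myc row did not separate the groups: it held 26.3, 31.0, 28.8 and 27.7 in Myc-labelled soleus against 30.0, 54.3 and 28.2 in control soleus, and 86.4 and 33.6 in Myc-labelled quadriceps against 114 and 55.7 in control quadriceps. All directions given here are therefore drawn from the labels. Myh7, the slow myosin heavy chain, held 207400 to 266460 in the 4 Myc-labelled soleus libraries and 193242 to 257270 in the 3 control soleus libraries, while it held 174 and 156 in Myc-labelled quadriceps and 9731 and 76136 in control quadriceps. Of 10 lists of fibre and cell type markers, no list separated the soleus groups by its summed level. The slow fibre and satellite cell lists separated the quadriceps groups. Soleus Myc libraries 3 and 4 stood apart in tendon markers, with summed levels of 2343 and 3719 over 10 of 10 listed genes. The other 5 soleus libraries held 7053 to 9874. Libraries 3 and 4 were also the lowest in fibroblast markers, with 6656 and 9772 against 15456 to 21827 in the other 5. The same held for erythroid markers (4305 and 3277 against 6002 to 7704) and endothelial markers (6737 and 6235 against 7289 to 8786). Results are therefore also given without both libraries 3 and 4.

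In soleus, the catalytic subunits of polymerase I and several of its other subunits and factors were higher in the Myc-labelled libraries. Of the 10 genes, 7 rose (limma, Benjamini-Hochberg adjusted p under 0.05 over 12745 genes tested) and 0 fell, where 7.06% of all genes tested rose and 2.23% fell (9.29% in all). The 7 were the catalytic subunits Polr1a and Polr1b, the subunits Polr1e, Twistnb and Cd3eap, and the factors Rrn3 and Taf1d. The rRNA precursor Rn45s did not pass the threshold, and the subunit Znrd1 and the factor Ubtf differed by less than their standard errors. For 8 of the 10 genes every Myc-labelled library lay above every control library, which held for 12.7% of all genes tested. The reverse, which held for 0 of the 10, was seen in 8.35% of all genes. At an unadjusted p under 0.05, 8 of the 10 were higher and 0 lower, where 12.9% of all genes tested were higher and 8.77% lower. The median log2 change of the 10 genes was 0.90, and that of all genes tested was -0.03.

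Several marker lists leaned one way in soleus, although the summed levels of the groups overlapped for each list. All 12 fast fibre markers were lower in the Myc-labelled libraries, with a median log2 change of -0.35, 4 of them at an unadjusted p under 0.05 and 1 past the adjusted threshold (Mylpf, a fast myosin light chain named after its values were seen, -0.47, limma adjusted p = 0.0100). Their summed level was 451315 to 712882 in Myc-labelled libraries and 684536 to 721842 in controls. All members of the fibroblast (9, median -0.41), endothelial (8, -0.16), macrophage (9, -0.38), erythroid (5, -0.60) and adipocyte (8, -0.35) lists had negative log2 changes, as did 9 of 10 tendon markers (median -1.01), while all 8 Schwann cell markers had positive ones (median 0.46). None of the markers in these 7 lists passed the adjusted threshold. At an unadjusted p under 0.05 (limma), 5 of the 10 tendon markers were lower, where 8.77% of all genes tested were lower. The count lower was 1 each for endothelial, macrophage and adipocyte markers and 0 for fibroblast and erythroid markers. Of the 8 Schwann cell markers 2 were higher, beside 12.9% of all genes tested. For fibroblast markers the summed level was 18267, 18809, 6656 and 9772 in Myc-labelled libraries 1 to 4 and 15456 to 21827 in controls. Myc-labelled libraries 1 and 2 thus lay within the control range. For Schwann cell markers it was 2292 to 5480 in Myc-labelled libraries and 1972 to 2918 in controls. None of the soleus markers in the table was at 0 in any library. The part of these markers' cell types in the soleus results was not tested.

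**Figure D1:**
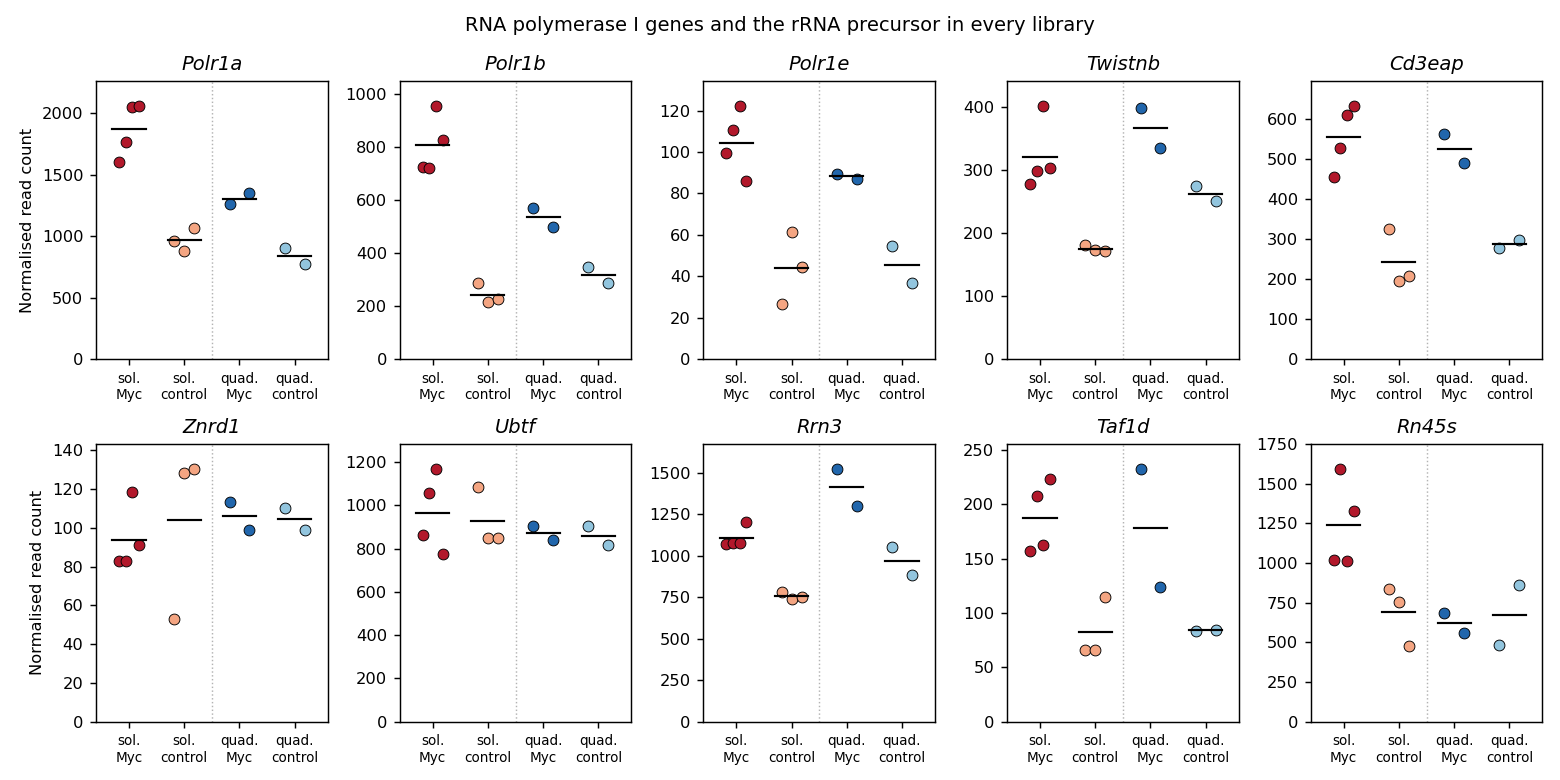
Normalised read count (vertical axes, starting at 0) of each of the 10 genes in the 11 libraries, 1 point per library, with the group mean as a bar. Groups run from Myc-labelled soleus (dark red) and control soleus (light red) to Myc-labelled quadriceps (dark blue) and control quadriceps (light blue). In soleus the groups are apart for every gene other than Znrd1 and Ubtf, and in quadriceps for every gene other than Znrd1, Ubtf and Rn45s.

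The promoter-proximal sequences of the genes are shown for Polr1b, which had the largest change among the 10, and for Cd3eap and Rrn3, which hold the hexamer CACGTG. This hexamer is the canonical E-box bound by dimers of Myc and Max and by other factors of the same family. The windows run from 250 bases before to 50 bases after the gene start in RefSeq on GRCm38.p6, each is 300 bases long and printed 5′ to 3′ on the strand of the gene, and capitals mark CACGTG. The hexamer is its own reverse complement, so a search of one strand covers both. Cd3eap (chr7:19359434-19359733, minus strand) has matches beginning at positions 33 and 271 of the window, Rrn3 (chr16:13780449-13780748, plus strand) has matches beginning at positions 36 and 203, and Polr1b (chr2:129100746-129101045, plus strand) has none.
Cd3eap: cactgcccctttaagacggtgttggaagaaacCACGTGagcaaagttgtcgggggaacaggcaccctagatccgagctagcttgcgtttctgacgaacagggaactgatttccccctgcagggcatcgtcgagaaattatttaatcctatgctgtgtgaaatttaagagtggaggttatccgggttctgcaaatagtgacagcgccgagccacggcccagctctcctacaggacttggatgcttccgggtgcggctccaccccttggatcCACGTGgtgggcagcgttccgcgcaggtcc
Rrn3: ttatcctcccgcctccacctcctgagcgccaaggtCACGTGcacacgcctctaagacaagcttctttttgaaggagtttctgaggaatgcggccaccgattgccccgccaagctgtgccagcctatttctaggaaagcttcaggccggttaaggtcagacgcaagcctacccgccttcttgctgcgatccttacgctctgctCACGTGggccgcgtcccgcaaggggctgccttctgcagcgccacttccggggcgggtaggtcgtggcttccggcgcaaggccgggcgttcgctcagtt
Polr1b: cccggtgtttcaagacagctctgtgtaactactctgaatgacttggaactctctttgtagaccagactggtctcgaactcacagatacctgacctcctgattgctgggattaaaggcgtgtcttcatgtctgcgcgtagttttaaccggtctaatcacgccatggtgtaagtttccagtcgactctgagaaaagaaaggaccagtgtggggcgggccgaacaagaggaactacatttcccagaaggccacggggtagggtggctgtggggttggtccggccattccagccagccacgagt

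Windows were found for 9 of the 10 genes, and 2 of these 9 (22.2%) hold CACGTG. The hexamer is in 12.0% of 10138 genes tested in soleus that have a window, and in 7.15% of all 32851 windows of the same length. No window of Polr1a, Polr1e, Twistnb, Znrd1, Ubtf or Taf1d holds it. Of the 7 genes that rose in soleus, Cd3eap (log2 change 1.22) and Rrn3 (0.54, the smallest of the 7) hold it and the other 5 do not. A match is a description of these letters and not a binding site, and its absence from this window says nothing of the factor.

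The catalytic subunits formed the most clearly separated pair. Polr1a encodes the largest subunit, which contributes the active site, and it lies on chr6:71909053-71984935 (GRCm38, GENCODE M21). It held 1605, 1765, 2052 and 2054 in Myc-labelled soleus against 961, 880 and 1065 in control soleus. The lowest Myc-labelled library was well above the highest control, and the log2 change was 0.94 (SE 0.11, 95% interval 0.71 to 1.18, limma adjusted p = 3.38e-05). Polr1b encodes the second-largest subunit, which closes the active site together with Polr1a, and it lies on chr2:129100995-129126594. It held 725, 721, 955 and 826 in Myc-labelled soleus against 287, 217 and 225 in control soleus. Here the groups were further apart, with a log2 change of 1.73 (SE 0.14, 95% interval 1.42 to 2.03, limma adjusted p = 9.01e-07), which is 3.31-fold. Both calls held without each library in turn and without both Myc-labelled libraries 3 and 4.

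The dissociable subunit pair moved in the same direction. Cd3eap (chr7:19356014-19359483) and Polr1e (chr4:45018583-45036565) encode the partners of a heterodimer that sits on the outside of the enzyme and takes part in initiation and elongation. Cd3eap held 455, 528, 610 and 632 in Myc-labelled soleus against 326, 194 and 208 in control soleus. Its groups did not overlap and its log2 change was 1.22 (SE 0.18, limma adjusted p = 0.000347). Polr1e is the lowest of the 9 protein-coding genes in control soleus, with 99.3, 110, 122 and 86.1 in Myc-labelled libraries against 26.5, 61.1 and 44.6 in controls. It was higher by a log2 change of 1.29 (SE 0.31, 95% interval 0.63 to 1.95, limma adjusted p = 0.0139), with no overlap between groups. The call was lost without control 1 (log2 change 0.98, limma adjusted p = 0.0750) and without both Myc-labelled libraries 3 and 4 (1.31, adjusted p = 0.0905).

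Twistnb (chr12:33429635-33441392) encodes a subunit of the stalk, the part of the enzyme that contacts Rrn3. It held 278, 300, 402 and 304 in Myc-labelled soleus against 181, 173 and 171 in control soleus. The controls lay close together and below all Myc-labelled libraries, and the log2 change was 0.86 (SE 0.17, limma adjusted p = 0.0029). Without both Myc-labelled libraries 3 and 4 it was 0.72, with an adjusted p of 0.0508. Znrd1 (chr17:36954356-36958559) encodes a small zinc-binding subunit that takes part in cleaving the nascent RNA. It held 82.7, 82.9, 119 and 91.0 in Myc-labelled soleus against 53.0, 128 and 130 in control soleus. Control 1 was the lowest library and controls 2 and 3 the highest, so the groups overlapped, and the log2 change was -0.05 with a 95% interval of -0.71 to 0.61. That interval includes the change of Rrn3, so a rise of that size could not be told from none.

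Of the factors, Rrn3 (chr16:13780708-13814839), also known as TIF-IA, links the polymerase to the promoter and is the factor through which growth signals are known to act on rDNA transcription. It held 1070, 1074, 1077 and 1203 in Myc-labelled soleus against 784, 742 and 750 in control soleus. It had the smallest change of the 7 genes that rose but among the tightest groups, with a log2 change of 0.54 (SE 0.10, limma adjusted p = 0.00184). Taf1d (chr9:15306214-15316991) encodes a subunit of SL1, the complex that recognises the ribosomal promoter. It held 157, 208, 162 and 224 in Myc-labelled soleus against 66.3, 66.0 and 115 in control soleus. The groups did not overlap, and the log2 change was 1.21 (SE 0.25, limma adjusted p = 0.00421). Without both Myc-labelled libraries 3 and 4 it was 1.17, with an adjusted p of 0.0554.

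Ubtf (chr11:102304560-102319742) encodes the HMG-box protein that coats active rDNA. It held 863, 1059, 1169 and 776 in Myc-labelled soleus against 1085, 852 and 851 in control soleus. The highest control lay above 3 of the 4 Myc-labelled libraries, and the lowest library of all was Myc-labelled. The log2 change was 0.05 with a 95% interval of -0.26 to 0.35. That interval lies below the changes estimated for the 7 genes that rose, but those changes have intervals of their own. The interval of Rrn3, 0.33 to 0.75, overlaps that of Ubtf. In the exact permutation test of pairs given below, Ubtf against Rrn3 had a raw p of 0.0571 and an adjusted p of 0.151. Pairs at the smallest raw p of that test had an adjusted p of 0.0918, so 0 pairs passed, however far apart their groups lay. The test therefore could not decide whether Ubtf and Rrn3 changed by different amounts.

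**Figure D2:**
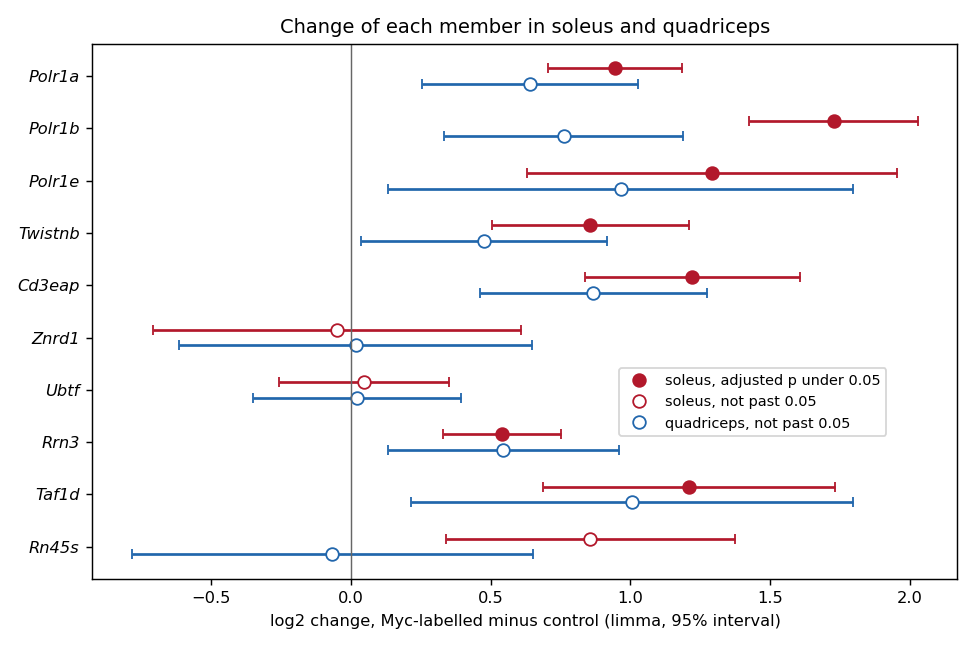
Log2 change (Myc-labelled minus control, horizontal axis) of the 10 genes with its 95% interval from limma, for soleus (red, upper of each pair) and quadriceps (blue, lower). Filled points are past an adjusted p of 0.05 and open points are not; 7 soleus points are filled and 0 quadriceps points, and the Polr1b interval is 1.42 to 2.03 in soleus and 0.33 to 1.19 in quadriceps.

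Overlapping annotation touches 4 of these genes. Polr1a overlaps a processed pseudogene and an antisense gene on the opposite strand, for neither of which the tables used here hold values. Cd3eap overlaps Ercc1, Polr1e overlaps Fbxo10, and Taf1d overlaps Cep295 and 4931406C07Rik, all likewise on the opposite strand, and the strand setting of the counting is not given in the sources used here. Reads from the shared stretches could therefore not be told apart. In soleus the log2 changes of the partners were -0.02 for Ercc1, -0.38 for Fbxo10, -0.03 for Cep295 and -0.42 for 4931406C07Rik, and 0 of these 4 passed the threshold. Taf1d also holds 8 small nucleolar RNA genes on its own strand.

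The members of the complex were not present at equal transcript levels. Per kilobase of annotated exon, mean normalised counts in Myc-labelled soleus were 256 for Rrn3, 223 for Cd3eap, 157 for Polr1a, 148 for Ubtf, 139 for Polr1b, 115 for Znrd1, 62.3 for Twistnb, 26.8 for Polr1e and 21.0 for Taf1d. On the same per-kilobase scale control soleus had 176 for Rrn3, 142 for Ubtf, 127 for Znrd1, 97.4 for Cd3eap, 81.6 for Polr1a, 41.9 for Polr1b, 34 for Twistnb, 11.3 for Polr1e and 9.21 for Taf1d. Thus Polr1b was nearer to Polr1a per kilobase in Myc-labelled soleus than in control soleus, and Cd3eap stood above Ubtf and Znrd1 in Myc-labelled soleus and below both in control soleus. These lengths are unions of all annotated exons, so the order between genes depends on which isoforms the muscle uses.

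The catalytic subunits can be compared within each library, where the scaling drops out. The number of Polr1b reads per Polr1a read was 0.452, 0.408, 0.465 and 0.402 in Myc-labelled soleus against 0.299, 0.247 and 0.212 in control soleus. In quadriceps it was 0.454 and 0.371 in Myc-labelled libraries against 0.384 and 0.371 in controls. The soleus controls had the 3 lowest ratios of the 11 libraries, and the quadriceps groups overlapped. Over all 45 pairs of genes in soleus, the difference in log2 ratio between the groups was tested by a two-sided exact permutation test over all 35 ways to split 7 libraries. For 14 pairs the raw p was 0.0286, the smallest this design allows, and the value adjusted over the 45 pairs was 0.0918, so 0 pairs passed a threshold of 0.05. With the raw p bounded in this way, 0 pairs passing does not show that the genes changed alike. The 14 pairs include Polr1a over Polr1b (difference of changes -0.78, so larger for Polr1b), Polr1b over Rrn3 (1.19), Polr1b over Twistnb (0.87), Polr1b over Cd3eap (0.51), Polr1b over Ubtf (1.68) and Polr1a over Ubtf (0.90). Leaving out a library lowers the number of splits so far that no pair could reach 0.05 (the smallest p is then 0.0667 or 0.1), so 0 pairs passed in those 7 settings by design.

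**Figure D3:**
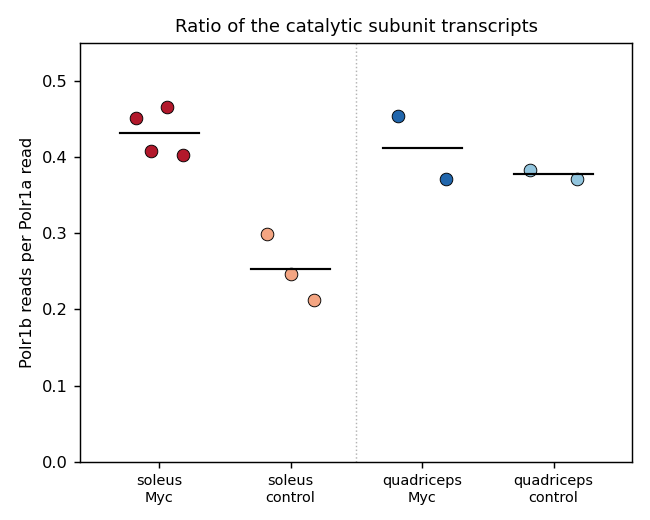
Polr1b reads per Polr1a read (vertical axis, from 0) in each of the 11 libraries, 1 point per library, with the group mean as a bar. The 3 control soleus libraries lie between 0.212 and 0.299, and the 8 others lie between 0.371 and 0.465.

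The row of the rRNA precursor was higher in Myc-labelled soleus but did not pass the threshold, and its quadriceps groups overlapped. Rn45s, the mouse rRNA precursor, held 1022, 1593, 1016 and 1325 in Myc-labelled soleus against 836, 755 and 479 in control soleus. Every Myc-labelled library lay above every control, by a small margin between Myc-labelled library 3 and control 1. The log2 change was 0.86 (SE 0.23, 95% interval 0.34 to 1.37) with an unadjusted p of 0.00475 and an adjusted p of 0.0506 (limma), which does not pass the threshold of 0.05. Over the 19 alternative settings the adjusted p ran from 0.00617 to 0.173, and 6 of them passed. In quadriceps Rn45s held 684 and 558 in Myc-labelled libraries against 484 and 864 in controls. Both Myc-labelled values lay between the 2 control values, and the log2 change was -0.07 with a 95% interval of -0.78 to 0.65.

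The Rn45s row covers a repeated gene whose product mostly lacks a poly(A) tail, and the library kit is described only as a standard Illumina protocol. Its level is therefore given beside the share of rRNA in each library. Rn18s, the row of the mature 18S rRNA and a gene picked after its values were seen, held 35289, 50142, 46662 and 57512 in Myc-labelled soleus against 42436, 41889 and 38421 in control soleus. In quadriceps Rn18s held 326327 and 288483 in Myc-labelled libraries against 513584 and 659877 in controls. The soleus groups overlapped (log2 change 0.19, limma adjusted p = 0.451). The quadriceps groups did not overlap, with a log2 change of -0.92 (SE 0.32, limma adjusted p = 0.648). Rn18s took 0.288% to 0.449% of all normalised reads in Myc-labelled soleus and 0.295% to 0.323% in control soleus, and 2.01% to 2.03% in Myc-labelled quadriceps and 3.11% to 4.32% in control quadriceps.

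The ratio of Rn45s to Rn18s in the same library was higher in the Myc-labelled libraries of both muscles. Rn45s per 1000 Rn18s reads was 29.0, 31.8, 21.8 and 23.0 in Myc-labelled soleus against 19.7, 18 and 12.5 in control soleus. The mean was 26.4 ± 4.76 in Myc-labelled soleus (SD, n = 4) and 16.7 ± 3.78 in control soleus (SD, n = 3), a log2 difference of 0.67 with a two-sided exact permutation p of 0.0286, the smallest that 35 splits can give. In quadriceps it was 2.10 and 1.93 in Myc-labelled libraries against 0.943 and 1.31 in controls. The log2 difference was 0.86, and the exact permutation p of 0.333 is the smallest that 6 splits can give. Rn45s itself was not higher in Myc-labelled quadriceps (log2 change -0.07), so the higher ratio there came with the lower Rn18s (-0.92). Reads of 18S sequence could fall on either row, and the ratio was looked at after the separate values were seen. The precursor also holds the sequences of the other mature rRNAs cut from it, so reads on the Rn45s row may come from mature rRNA. Neither the row nor the ratio thus measures the precursor alone. The part of the differing rRNA share in the Rn45s values was not tested.

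**Figure D4:**
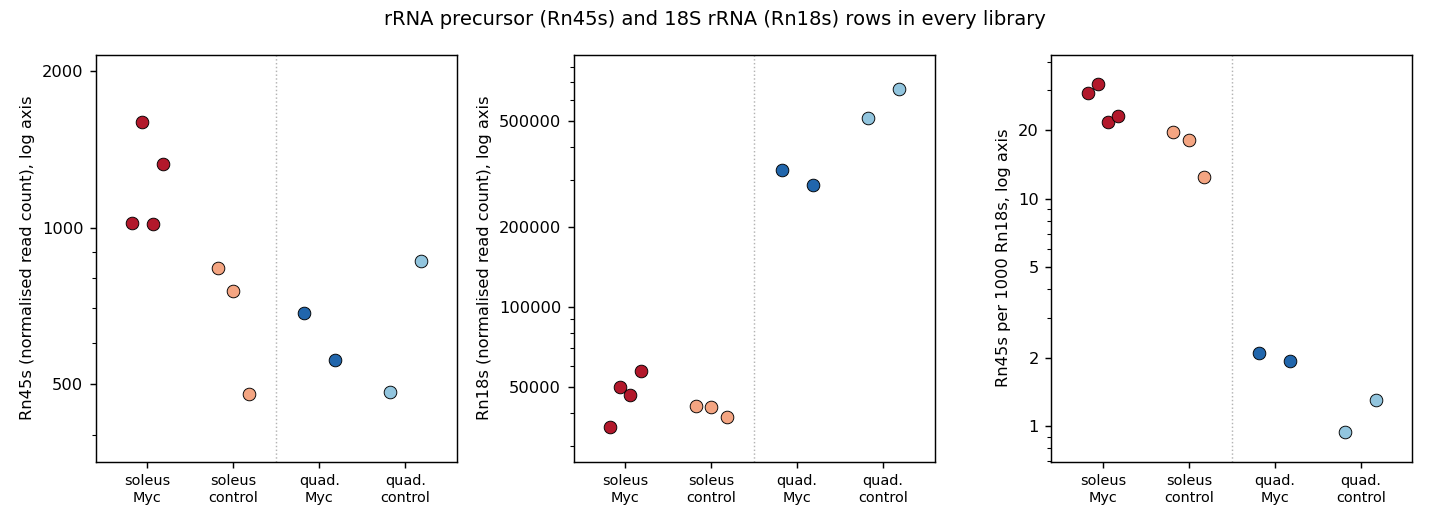
Rn45s (left), Rn18s (middle), both as normalised read counts, and Rn45s per 1000 Rn18s reads (right), on log vertical axes, 1 point per library in Myc-labelled and control soleus (dark and light red) and Myc-labelled and control quadriceps (dark and light blue). The right panel has 21.8 to 31.8 in Myc-labelled soleus above 12.5 to 19.7 in control soleus, and 1.93 and 2.10 in Myc-labelled quadriceps above 0.943 and 1.31 in control quadriceps.

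Other rows of this kind were few. Lars2, a mitochondrial leucyl-tRNA synthetase gene whose annotation holds rDNA-like sequence, was the 1 of 4 listed genes of that kind in the tables. Its log2 change was 0.35 in soleus (limma adjusted p = 0.0769), and in quadriceps it held 17140 and 15293 in Myc-labelled libraries against 24729 and 28107 in controls (log2 change -0.70, adjusted p = 0.598). Of 17 RNAs that mostly lack a poly(A) tail, 2 were in the soleus table and 3 in the quadriceps table. Rn7s1, a copy of the signal recognition particle RNA, had a log2 change of 0.47 in soleus (limma adjusted p = 0.452) and -0.76 in quadriceps (adjusted p = 0.869), and Rn7s2 has the same values in every library. Rn7sk, in the quadriceps table, held 39.1 and 13.8 in Myc-labelled libraries against 56.9 and 104 in controls (log2 change -1.68, limma adjusted p = 0.670). In quadriceps, Rn18s, Lars2 and Rn7sk thus each held their highest values in the control libraries, with no overlap between groups, though none passed the threshold. Every Myc-labelled value lay below every control value in 16.9% of all genes tested in quadriceps. The groups of Rn7s1 and Rn7s2 overlapped.

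In quadriceps 0 of the 10 genes passed an adjusted p of 0.05, where 1 of all 12270 genes tested did (0.00815%; AI506816, named after its values were seen). At an unadjusted p under 0.05, 7 of the 10 were higher and 0 lower, where 3.97% of all genes tested were higher and 2.24% lower. The same 7 genes that rose in soleus had all Myc-labelled values above all control values in quadriceps, which held for 18.3% of all genes tested. Their log2 changes lay between 0.48 and 1.01, and the median over all 10 genes was 0.59, against -0.03 for all genes tested. Since none passed the adjusted threshold, these values are given as a description.

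Among the quadriceps subunits, Polr1b held 571 and 500 in Myc-labelled libraries against 346 and 287 in controls. Its log2 change was 0.76 (SE 0.18, 95% interval 0.33 to 1.19, limma adjusted p = 0.424). Polr1a held 1257 and 1350 in Myc-labelled libraries against 902 and 774 in controls, a log2 change of 0.64 (SE 0.17, adjusted p = 0.465). Both catalytic subunits were thus apart in all 4 libraries by a smaller margin than in soleus. Cd3eap held 563 and 490 in Myc-labelled libraries against 279 and 297 in controls, with the smallest p among the 10 genes (log2 change 0.87, SE 0.17, limma adjusted p = 0.338). Polr1e held 89.5 and 86.8 in Myc-labelled libraries against 54.5 and 36.6 in controls, a log2 change of 0.96. Twistnb held 399 and 336 in Myc-labelled libraries against 275 and 251 in controls, a log2 change of 0.48. The groups of these 3 genes did not overlap. Znrd1 held 113 and 98.7 in Myc-labelled libraries against 110 and 98.9 in controls, so the groups interleaved.

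Of the factors in quadriceps, Rrn3 held 1522 and 1302 in Myc-labelled libraries against 1053 and 883 in controls, a log2 change of 0.55 (SE 0.18, limma adjusted p = 0.624). Taf1d held 232 and 124 in Myc-labelled libraries against 83.6 and 84.8 in controls, a log2 change of 1.01 (SE 0.34, adjusted p = 0.642), and its Myc-labelled libraries lay further from each other than library 2 lay from the controls. Ubtf held 905 and 841 in Myc-labelled libraries against 903 and 819 in controls, and its groups interleaved. Without Myc-labelled library 2, Cd3eap (log2 change 0.97, adjusted p = 0.0367) and Taf1d (1.45, adjusted p = 0.0189) passed the threshold, in a fit where the lone Myc-labelled library is assumed to vary like the controls. Without Myc-labelled library 1 instead, Taf1d had a log2 change of 0.56 (adjusted p = 0.9999) and Cd3eap 0.77, and 0 of the 10 genes passed.

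The quadriceps groups also differed in fibre markers, and these values stand beside every quadriceps result. The summed level of 10 of 10 slow fibre markers was 1986 and 3525 in Myc-labelled libraries against 26329 and 191046 in controls, with none of the 10 at 0 in any library. The summed level of 5 of 5 satellite cell markers was 1185 to 1242 in Myc-labelled libraries against 910 to 958 in controls. Most of that sum came from Myod1 (mean 608 in Myc-labelled and 473 in control libraries) and Cdh15 (513 and 378), whose groups did not overlap. The groups overlapped for Pax7 (43.8 and 40.4), Myf5 (33.2 and 30.9) and Calcr (16.3 and 11.9). The part of fibre or satellite cell content in the quadriceps results was not tested. In soleus the slow fibre list ran from 504670 to 645089 in Myc-labelled libraries and from 534736 to 622212 in controls.

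The changes of the 10 genes were compared between muscles in 1 limma fit over the 11 libraries. None of them differed at an adjusted p of 0.05, and 0 of all 11971 genes tested did (0%); at an unadjusted p under 0.05 it was 3.18% of all genes. Polr1b had the lowest p of the 10: its change was larger in soleus by 0.97 (SE 0.24, 95% interval 0.46 to 1.47, unadjusted p = 0.00106, adjusted p = 0.618). Rn45s had a difference of 0.92 in the same direction (SE 0.42, 95% interval -0.01 to 1.86, adjusted p = 0.999), which became 1.34 without quadriceps control 1 and 0.51 without quadriceps control 2. For Rrn3 the difference was -0.0040 with a 95% interval of -0.37 to 0.36, the narrowest of the 10. The other 7 genes had differences between -0.07 and 0.38, with intervals that all included 0.

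Around these genes, some of the polymerase I subunits that are shared with other polymerases also rose. Of 7 tested, 3 rose in soleus and 0 fell, where 7.06% of all genes tested rose and 2.23% fell. Their median log2 change was 0.54, against -0.03 for all genes tested. Polr1c, which is shared with polymerase III, averaged 231 ± 42.8 in Myc-labelled soleus and 132 ± 15.1 in control soleus (SD, n = 4 and 3; log2 change 0.79, limma adjusted p = 0.0157). Its partner Polr1d averaged 1152 ± 56.4 in Myc-labelled soleus and 792 ± 95.5 in control soleus (0.55, adjusted p = 0.00347). Polr2e, which is in all 3 nuclear polymerases, averaged 1130 ± 107 in Myc-labelled soleus and 751 ± 125 in control soleus (0.60, adjusted p = 0.0045). In quadriceps 0 of the 7 were called, with a median of 0.07, and Polr1d had the smallest p (0.35, adjusted p = 0.83).

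Other factors of rDNA promoter recognition, termination and release, listed together with topoisomerases, mostly did not pass the test. The 8 tested had a median log2 change of 0.05 in soleus. Of them 1 rose, a count near the share of all genes tested that rose (7.06%). It was Top2b, a topoisomerase, which averaged 828 ± 55.6 in Myc-labelled soleus and 631 ± 6.03 in control soleus (log2 change 0.39, limma adjusted p = 0.0275). Taf1a, a partner of Taf1d in SL1, had a log2 change of 0.42 (adjusted p = 0.294), and Top1, another topoisomerase, 0.17 (adjusted p = 0.494). The median in quadriceps was 0.14 with 0 of 8 called, and Tbp, the TATA-binding protein that is part of SL1, had the smallest p there (0.70, adjusted p = 0.836).

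Among nucleolar proteins that act on rDNA transcription, some of the best-known rose, by log2 changes of 1.2 to 1.71. Of 14 tested in soleus 5 rose and 0 fell, where 7.06% of all genes tested rose and 2.23% fell. Their median log2 change was 0.48. Ncl, nucleolin, averaged 7588 ± 627 in Myc-labelled soleus and 2680 ± 184 in control soleus (SD, n = 4 and 3; log2 change 1.5, limma adjusted p = 6.99e-08). Ddx21, an RNA helicase that acts in rRNA transcription and processing, averaged 2587 ± 342 in Myc-labelled soleus and 819 ± 58.7 in control soleus (1.65, adjusted p = 9.89e-08). Nolc1, a nucleolar phosphoprotein, averaged 1540 ± 218 in Myc-labelled soleus and 469 ± 51.9 in control soleus (1.71, adjusted p = 2.09e-07). Npm1 (1.2) and Mybbp1a (1.2) also rose, and the other 9 did not pass. In quadriceps 0 of 14 were called, with a median of 0.30, and Npm1, nucleophosmin, had the smallest p (1.09, adjusted p = 0.231).

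Subunits found only in polymerase III rose in part, and none of those found only in polymerase II passed the test. Of the 10 polymerase III-specific subunits tested in soleus, 5 rose and 0 fell, where 7.06% of all genes tested rose and 2.23% fell. Their median log2 change was 0.50. Polr3g, a subunit whose paralogue Polr3gl takes its place in many adult cells, averaged 114 ± 31.5 in Myc-labelled soleus and 28.4 ± 5.47 in control soleus (log2 change 1.95, limma adjusted p = 0.000586). Polr3d averaged 560 ± 80.4 in Myc-labelled soleus and 321 ± 47.6 in control soleus (0.80, adjusted p = 0.00184). Of the 8 polymerase II-specific subunits, 0 were called by limma and 0 had an unadjusted p under 0.05 in soleus, with a median of 0.13. Since 9.29% of all genes tested were called, 0 of 8 is near that share and is not read as a difference. Polr2a, the largest polymerase II subunit, had a log2 change of -0.22 (adjusted p = 0.258), Polr2c 0.22 (adjusted p = 0.474) and Polr2g 0.22 (adjusted p = 0.551). Of the 18 polymerase II promoter factors 0 were called, beside the same 9.29% of all genes tested, with a median of -0.01. At an unadjusted p under 0.05, 5 of the 18 were higher and 1 lower, beside 12.9% higher and 8.77% lower among all genes tested. The smallest p among them belonged to the TFIIF subunit genes Gtf2f2 (0.57, adjusted p = 0.075) and Gtf2f1 (0.43, adjusted p = 0.136) and to the TFIIE subunit gene Gtf2e1 (0.40, adjusted p = 0.142). In quadriceps 0 genes of these 3 lists were called, and the medians were 0.25 for polymerase III, 0.18 for polymerase II and 0.03 for its promoter factors. The smallest p in each list there belonged to Polr3d (0.56, adjusted p = 0.556), Polr2j (0.41, adjusted p = 0.813) and Taf9 (0.38, adjusted p = 0.816).

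**Figure D5:**
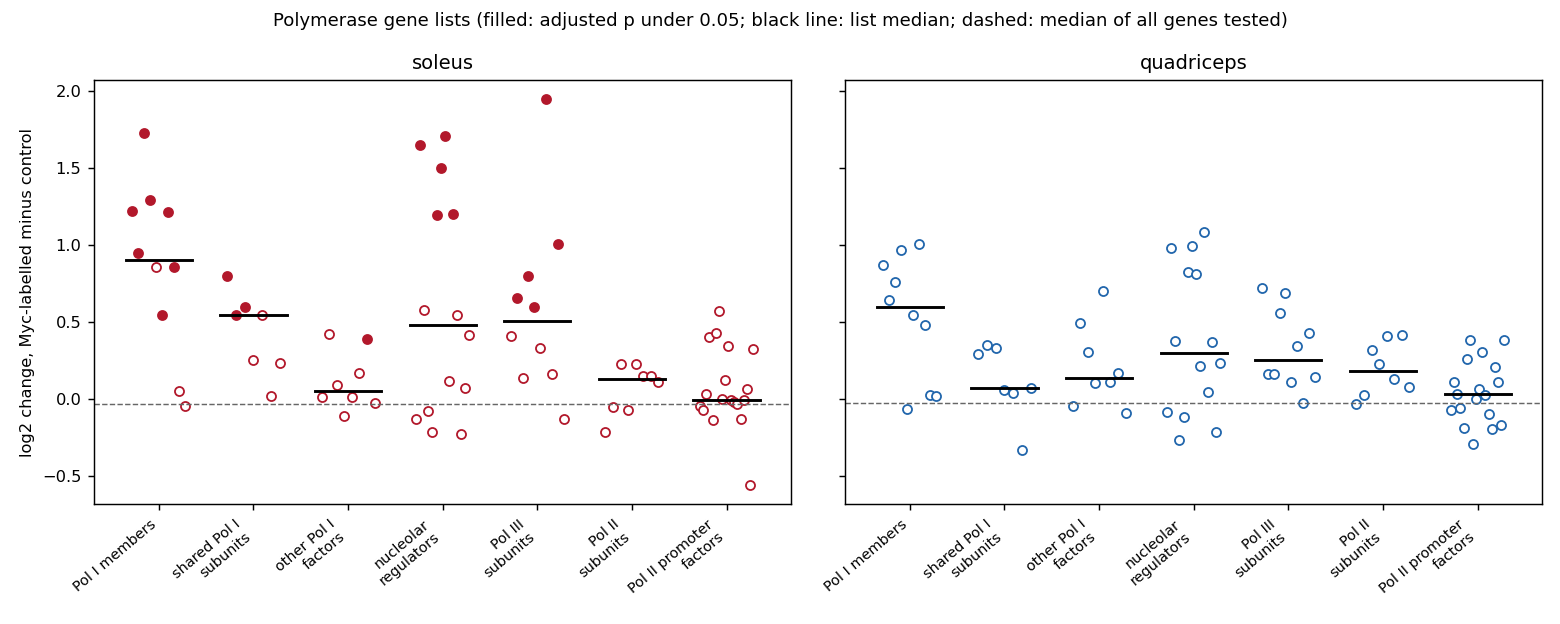
Log2 change (Myc-labelled minus control, vertical axis) of each tested gene in 7 lists, 1 point per gene, in soleus (left) and quadriceps (right). Filled points are past an adjusted p of 0.05. Black bars are list medians, and the dashed line is the median of all genes tested, -0.03 in both muscles. Filled points in soleus are 7 of 10 polymerase I genes, 5 of 10 polymerase III subunits and 0 of 8 polymerase II subunits. Of all genes tested in soleus, 9.29% passed. In quadriceps 0 points are filled, where 0.00815% of all genes tested passed.

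The genes whose pattern lay nearest to that of Polr1b were sought over all 11 libraries, each gene centred on its mean within a muscle, among 8040 genes with a mean of at least 100 in both muscles. By the root mean square difference on the log2 scale they were Nolc1 (0.0852), Ddx21 (0.111), Grwd1 (0.123), Ftsj3 (0.131) and Rrp12 (0.136). Their log2 changes were 1.71, 1.65, 1.73, 1.83 and 1.65 in soleus, in that order, and 0.81, 0.98, 1.0, 0.94 and 1.05 in quadriceps. Changes near those of Polr1b follow from how these genes were picked, over the same libraries, and are no separate result. Grwd1, Ftsj3 and Rrp12 are known from ribosome assembly and rRNA processing. The nearest genes to Rn45s were Klhl2 (0.233), Trim11 (0.237), Mtx3 (0.238), Utp15 (0.251) and Acbd6 (0.253), so its nearest neighbour was further off than each of the 5 nearest to Polr1b. Utp15, 1 of these 5, is a known component of the machinery that processes the rRNA precursor. A link of these genes to Rn45s was not tested.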

How the data were processed

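The deposited values were used as they stand: a normalised signal per gene, which the values show to be estimated reads divided by 1 size factor per library (1 read was worth 0.831 to 1.17). Per the submitters' processing notes, DESeq2, STAR 2.7.8a and Partek were used in roles not stated, and both mm10 and mm39 are listed, so the build of the counting is not settled. Positions come from GENCODE M21 on GRCm38 and promoter windows from RefSeq on GRCm38.p6, matched by symbol. Between 86.9% and 93.2% of values under 40 reads were whole reads within 0.02 of a read, so a count test was not run.

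limma 3.58.1 in R 4.3.3 (statmod 1.5.0) was fitted per muscle to log2(value + 1) of all genes that reached 10 in at least 3 libraries of soleus or 2 of quadriceps, using robust moderation and a mean-variance trend. Fold changes on this scale are understated for low genes. All 10 genes passed this filter in both muscles. P-values were adjusted by Benjamini-Hochberg over all genes tested, and calls are at 0.05. The difference between muscles was an interaction term over the 11 libraries, treated as independent. Values after ± are SD. The test was tried on simulated data. Libraries of 1 group differed beyond counting error (chi-square per gene 15.2 to 77.6), so each library was counted once.

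The 10 genes and the other lists were chosen with earlier results of these data known. All 10 are named, with up to 3 genes per other polymerase or rDNA list by smallest p in soleus and 1 in quadriceps, and the 5 genes nearest to Polr1b and to Rn45s. One gene that this rule names is not reported here. Npm1 and Mybbp1a in soleus were added after their values were seen. Alternatives were other pseudocounts, filters and scalings, limma-voom, no robust moderation, 1 fit over all libraries, a replicate block and leaving out each library. Late-life exercise, which the series also names, was not analysed here.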

Additional observations from a re-analysis of the deposited data

Results flagged for a closer look

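Rrn3 in Myc-labelled soleus had 1 library far from the others: library 4 held 1203, against 1070, 1074 and 1077 in libraries 1 to 3. The gap to the nearest library was 0.947 of the whole range of the group on the log2 scale, above the 95% limit of Dixon's test. The 10 genes were examined in this group of 4, and chance alone passes the limit in about 1 in 20 groups. Without library 4 the log2 change of Rrn3 stayed above 0 and past the threshold.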

How the results depend on the processing

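Results were recomputed under 23 settings in all, each under those that apply to it. These were 19 for a change in soleus, 15 for a change in quadriceps and 21 for a difference between muscles. Of 473 alternative values, 431 kept their direction and their side of the threshold or, for counts of genes, lay near the reported count. In soleus 1184 genes were called, 778 to 1015 without 1 library (778 without control 2) and 601 without both Myc-labelled libraries 3 and 4, a setting added after seeing the data. Of the 10 genes 7 were called, 7 to 8 under the planned settings, 7 without any 1 library by count (Polr1e lost and Rn45s gained without control 1) and 4 without both libraries 3 and 4. Rn45s passed with a minimum value of 50 (adjusted p = 0.0454), TMM scaling (0.0474), limma-voom (0.0496), no robust moderation (0.0150), a replicate block (0.00617) and without control 1 (log2 change 1.01, adjusted p = 0.0337).

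The near-zero changes turned sign when a library was left out, over ranges of -0.47 to 0.17 for Znrd1 and -0.050 to 0.16 for Ubtf in soleus, and in quadriceps of -0.081 to 0.11 for Znrd1, -0.050 to 0.091 for Ubtf and -0.48 to 0.35 for Rn45s. In soleus Znrd1 was 0.0042, 0.0035, 0.16 and 0.17 without Myc-labelled libraries 1 and 2 and controls 2 and 3, and Ubtf was -0.0022, -0.050, -0.010 and -0.011 without Myc-labelled libraries 2 and 3 and controls 2 and 3. In quadriceps, without Myc-labelled library 1 and without control 2, Znrd1 was -0.081 and -0.061 and Ubtf -0.032 and -0.050. Rn45s was 0.081 without Myc-labelled library 2 and 0.35 without control 2.

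In quadriceps 1 gene was called, 94 in 1 fit over all libraries, 0 with equal library totals (also leaving out Rn18s) and 3 to 208 without 1 library (28 and 208 without Myc-labelled libraries 1 and 2, 7 and 3 without controls 1 and 2). Of the 10 genes 0 to 2 were called without 1 library, 2 without Myc-labelled library 2. For the difference between muscles 0 genes were called, 4 without robust moderation and 0 to 22 without 1 library (6 without quadriceps Myc-labelled library 2, 22 and 8 without quadriceps controls 1 and 2). The causes were not tested.

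With the replicate number as a block, 1216 soleus and 4 quadriceps genes were called, and 8 and 0 of the 10 genes; Myc-labelled library 4 in soleus has no partner in that fit. Deviations from the group mean were correlated between Myc-labelled and control libraries. Same-numbered libraries correlated at 0.0010, 0.076 and 0.14 in soleus, and differently numbered ones at -0.20 to 0.21. In quadriceps the values were 0.14 and -0.14, which differ only in sign because each group has 2 libraries. The numbers were thus not shown to pair the libraries. Depth limits the low genes most, Polr1e and Znrd1 among the 10.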
